A study of Mus musculus with 6 samples.

Results

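Interferon-stimulated genes were followed in MLL-AF9-expressing progenitor cells of mice whose cells could or could not switch on the intracellular domain of Notch1. The 45 genes are a list of antiviral and immune effectors, chosen with earlier results of these data known. Each was read from the probe set with its platform symbol and, where it had several, the highest mean log2 intensity over the 6 arrays. Of the 45 genes, 43 had such a probe set, among 18194 genes in all. Isg15 was found only on probe sets that carry several gene symbols and Ifi44 was not on a probe set used here, so neither has a value.

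The N1-IC group held 3 samples and the WT group 3. Cells of both groups carried MLL-AF9 and were ROSAwt/CreERT2; at the EF1α locus the N1-IC samples were EF1αwt/lsl-N1-IC and the WT samples EF1αwt/wt. In N1-IC, the Notch1 intracellular domain sits in the EF1α locus behind a stop cassette that Cre can remove, and both groups carry the tamoxifen-dependent CreERT2 recombinase. In both groups cKit+ cells infected with MLL-AF9-IRES-YFP, which encodes a leukaemia fusion protein and a fluorescent marker, were given to irradiated wild-type mice 12 weeks old (50000 such cells with 250000 wild-type marrow cells). All recipients received 2 doses of tamoxifen (0.2 mg per g of body weight) 4 weeks later, and LGMP were sorted from marrow 6 days after the last dose, as cells without lineage markers or Sca1 that were positive for cKit, YFP, CD34 and FcgRII/III. By the labels every N1-IC sample was female and every WT sample male, so genotype and sex cannot be told apart in any value below. The labels do not say whether a sample is 1 mouse or a pool, so the p-values reflect only how far these samples vary. Because RNA of a whole sorted population was measured, fewer cells of a type and less RNA per cell cannot be told apart.

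Interferons are secreted proteins that warn cells of infection. Type I interferon binds the receptor chains Ifnar1 and Ifnar2, the kinases Jak1 and Tyk2 then act on Stat2, and a complex that holds Stat2 and Irf9 binds a promoter element called ISRE. Interferon gamma works through the receptor chains Ifngr1 and Ifngr2, and its target genes often hold an element called GAS. In the marrow, interferons are known to act on stem and progenitor cells, and many interferon-stimulated genes have a basal level without infection.

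Genes of the sort gate and of granulocyte-monocyte progenitors were high on all arrays. Kit was at 10.42 to 10.68 log2 units on the N1-IC arrays and 10.23 to 10.76 on the WT arrays, and the granule genes Mpo and Prtn3 averaged 14.06 and 13.97 in N1-IC and 13.97 and 13.94 in WT. Cd34, a gate marker, was at 11.04, 10.05 and 11.28 in N1-IC, against 11.69, 11.52 and 11.33 in WT, and so was lower on every N1-IC array, by most on N1-IC replicate 2. Array medians lay between 49.6 and 51.0 intensity units, and array values correlated at 0.9832 to 0.9924 over all genes. Some WT arrays stood apart. For Xist, the RNA of the inactive X, WT replicate 2 had 10.70 while WT replicates 1 and 3 had 5.64 and 5.42, whereas the Y-linked Eif2s3y was at 10.34 to 11.31 on all WT arrays. The second WT array also had the highest mean of the erythroid and megakaryocyte list (8.69, with 5.50 to 6.35 elsewhere), and WT replicate 1 the lowest mean of the late granulocyte list (7.47, with 9.74 to 10.44 elsewhere).

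The 43 measured genes of this list tended to lie higher in N1-IC than in WT, by small amounts, and none passed the threshold. A wider list of interferon-inducible genes, given below, did not lie higher. It had 26 of 56 genes higher and 30 lower, with a median log2 fold change of -0.037. In the limma fit over all 18194 genes, 0 of the 43 genes had an adjusted p under 0.05, where 1 gene in all (0.0055%) passed, and the smallest adjusted p of a member was 0.618. The gene that passed was the Y-linked Eif2s3y, lower in N1-IC, whose samples were labelled female. The mean was higher in N1-IC for 29 of the 43 (67.4%), against 52.6% of all genes. The median log2 fold change of N1-IC over WT was 0.15, against 0.012 over all genes. By unadjusted p, 5 genes were under 0.05 on the higher side (11.6%, against 4.14% of all genes) and 2 on the lower side (4.65%, against 3.84%). Every N1-IC array lay above every WT array for 6 genes, namely Oas2, Oasl2, Ifit1, Rtp4, Ifi35 and Dtx3l, or 14.0% of members against 8.32% of all genes. The reverse held for Mx1 alone, 2.33% of members against 6.52% of all genes. Of these 7 genes, 5 (Oas2, Oasl2, Ifit1, Rtp4 and Mx1) lay below the median level of all genes, 6.92 log2 units, and among the 31 members at or above it the groups did not overlap for 2. The share of non-overlap over all genes at or above that level was not counted. Of the 43 log2 fold changes, 34 were smaller than 0.5 in size. With 1 array left out the median was 0.076 without N1-IC replicate 2, 0.092 without N1-IC replicate 3 and 0.10 without WT replicate 3, and 0.22 at most.

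**Figure D1:**
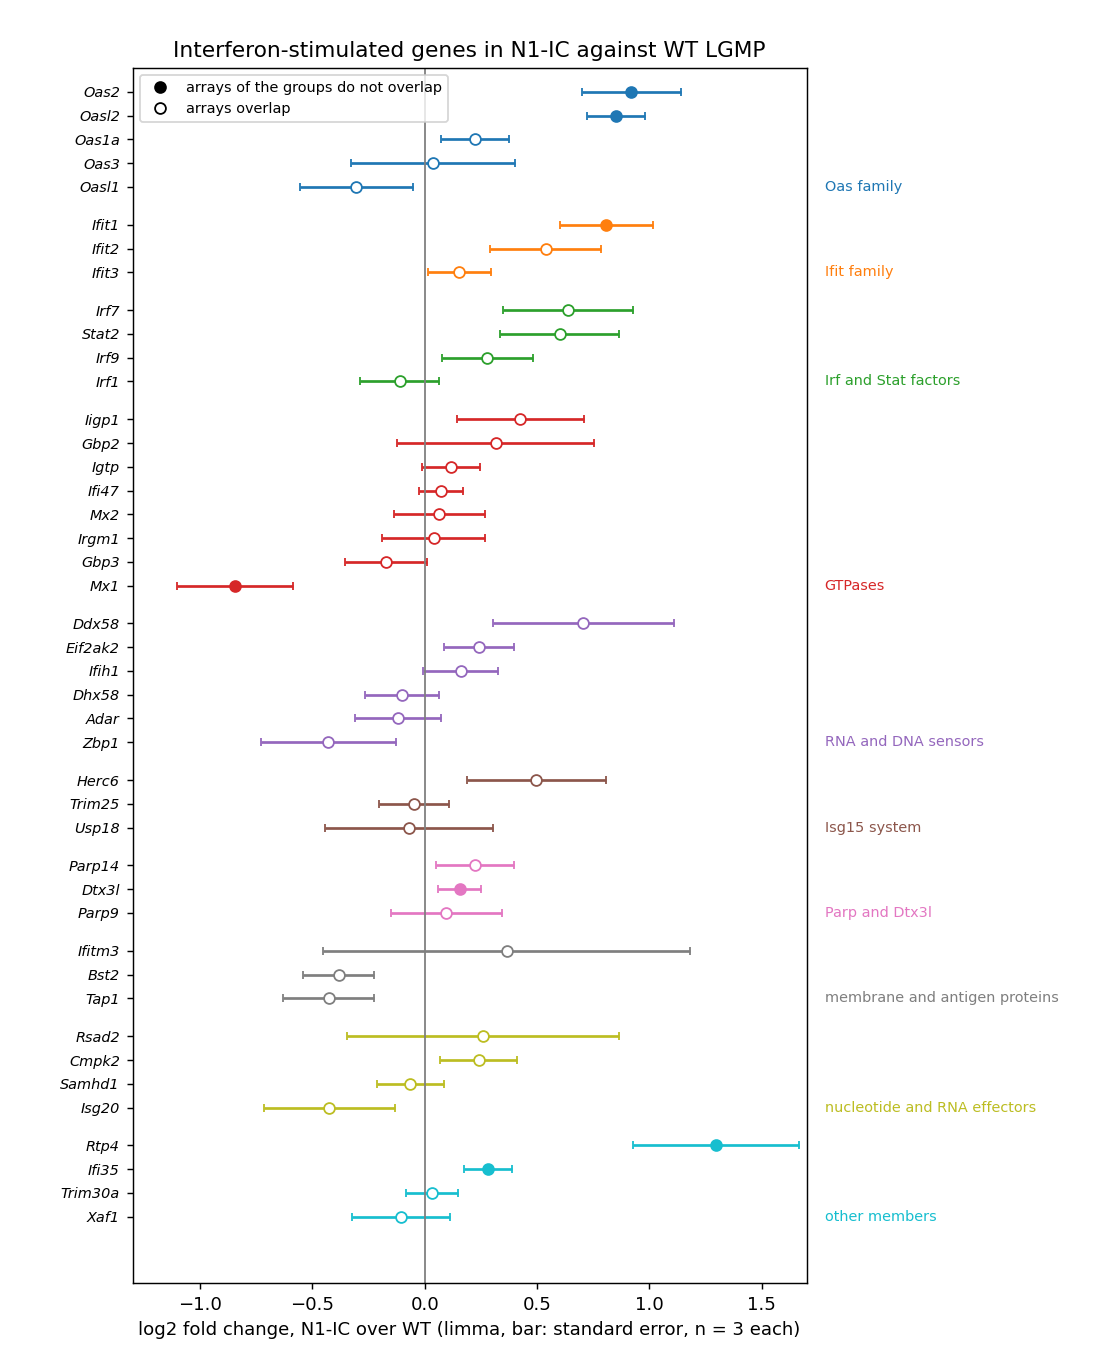
Log2 fold change of N1-IC over WT for the 43 measured interferon-stimulated genes, grouped by role, with limma's standard error (n = 3 arrays per group). Filled points mark the 7 genes whose arrays do not overlap between the groups: Rtp4 is farthest to the right at 1.30 and Mx1 farthest to the left at -0.84.

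Promoter stretches that hold the ISRE letters are shown for a few genes, because genes that carry them lay on both sides of zero. RefSeq promoters of the mouse assembly GRCm38.p6 (250 bases before to 50 after the start of a gene) were found for 33 of the 43 genes. The ISRE letters (GAAA, then NN, then GAAA, where N is any base), searched on both strands, stood in a promoter of 16 of the 33 genes (48.5%), against 3.99% of the 27025 genes in the table. The GAS letters TTCNNNGAA, which read the same on both strands, stood in 11 of the 33 (33.3%), against 9.55% of all genes, and an ISRE and a GAS match overlapped at 2 places. Below, letters that match the ISRE are in capitals, the rest of the stretch before the start is in lower case, and each is read 5′ to 3′ on the strand of its gene. They belong to Oas1a (chr5:120907526-120907570, minus strand), Oas3 (chr5:120777700-120777759, minus), Ifit1 (chr19:34640760-34640838, plus), Ifit3 (chr19:34583348-34583441, plus), Stat2 (chr10:128270251-128270310, plus), Gbp3 (chr3:142559974-142560039, plus) and Bst2 (chr8:71537562-71537627, minus).
Oas1a: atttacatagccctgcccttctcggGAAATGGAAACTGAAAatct
Oas3: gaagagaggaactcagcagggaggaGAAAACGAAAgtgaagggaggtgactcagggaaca
Ifit1: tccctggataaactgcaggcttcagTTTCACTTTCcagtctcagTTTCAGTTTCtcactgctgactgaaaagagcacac
Ifit3: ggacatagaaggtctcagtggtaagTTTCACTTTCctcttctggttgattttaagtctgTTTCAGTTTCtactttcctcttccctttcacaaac
Stat2: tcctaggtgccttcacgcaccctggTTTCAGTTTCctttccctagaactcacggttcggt
Gbp3: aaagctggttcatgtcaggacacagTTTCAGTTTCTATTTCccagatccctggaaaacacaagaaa
Bst2: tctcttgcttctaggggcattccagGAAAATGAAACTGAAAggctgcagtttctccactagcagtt
Ifit1 and Ifit3 each hold a pair of matches, the farthest 104 bases before the start of Ifit1 and 156 before that of Ifit3, and in Oas1a, Gbp3 and Bst2 the matches overlap each other. Of the 16 genes with the letters, 14 had a higher mean in N1-IC, with a median log2 fold change of 0.19. Of the 17 without them, 9 had a higher mean, with a median of 0.074. This split was looked at after the values were known, and the difference between the groups of genes was not tested. Of the genes whose arrays did not overlap between genotypes, Ifit1 held ISRE matches, and Oasl2, Ifi35 and Dtx3l had none in this window. No promoter was found for the others, Oas2, Rtp4 and Mx1, so whether they carry the letters is unknown here.

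The Oas family makes oligoadenylates that switch on an RNA-degrading enzyme, and all 5 members lie on chromosome 5. Oasl2, an Oas-like protein, was at 6.28, 6.52 and 6.48 log2 units on N1-IC arrays 1, 2 and 3, against 5.47, 5.79 and 5.47 on WT arrays 1, 2 and 3. Its 3 N1-IC arrays thus stood clear of all WT arrays. The log2 fold change was 0.85 ± 0.13 (standard error), or 1.81-fold, with a limma adjusted p of 0.618 and the smallest unadjusted p of all members (0.000493). Oas2, an oligoadenylate synthetase, was at 6.96, 7.06 and 6.61 in N1-IC, against 5.64, 5.85 and 6.38 in WT, a log2 fold change of 0.92 ± 0.22. WT replicate 3 was the highest WT array of Oas2 and came nearest to the N1-IC arrays.

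The other Oas genes overlapped between the genotypes. Oas1a was at 10.19, 10.38 and 10.27 in N1-IC, against 10.20, 10.22 and 9.74 in WT, and only WT replicate 3 lay clearly below the rest. Oas3 was at 6.18, 6.83 and 6.04 in N1-IC, against 6.79, 6.58 and 5.59 in WT. Its log2 fold change was 0.037, with a 95% interval of -0.85 to 0.92 that covers both directions. Oasl1, known in mice to restrain production of Irf7 protein, was at 5.82, 6.12 and 5.72 in N1-IC, against 6.74, 5.91 and 5.94 in WT, a log2 fold change of -0.30 ± 0.25. WT replicate 1 was the one high array. The family median was 0.22, with 4 of 5 genes higher in N1-IC. The family averaged 7.09, 7.38 and 7.02 on N1-IC arrays and 6.97, 6.87 and 6.62 on WT arrays, so these group means did not overlap.

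The Ifit proteins bind foreign or unusually capped RNA, and their 3 genes lie on chromosome 19. Ifit1 was at 5.09, 5.78 and 5.40 in N1-IC, against 4.36, 4.84 and 4.65 in WT, with a log2 fold change of 0.81 ± 0.21, or 1.75-fold. All N1-IC arrays of Ifit1 lay above all WT arrays. Ifit2, whose product is known to promote cell death as well as to bind RNA, was at 9.02, 8.78 and 8.62 in N1-IC, against 7.78, 8.71 and 8.32 in WT, a log2 fold change of 0.54 ± 0.25. WT replicate 1 was the low array, and WT replicate 2 lay above N1-IC replicate 3. Ifit3 was at 6.28, 5.97 and 5.82 in N1-IC, against 5.99, 5.81 and 5.81 in WT, a log2 fold change of 0.15 ± 0.14, and the groups overlapped. Mean levels of the family were 6.80, 6.84 and 6.62 on the N1-IC arrays and 6.04, 6.45 and 6.26 on the WT arrays, which did not overlap. The family median of 0.54 was 0.29 without WT replicate 1 and 0.76 without WT replicate 2.

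**Figure D2:**
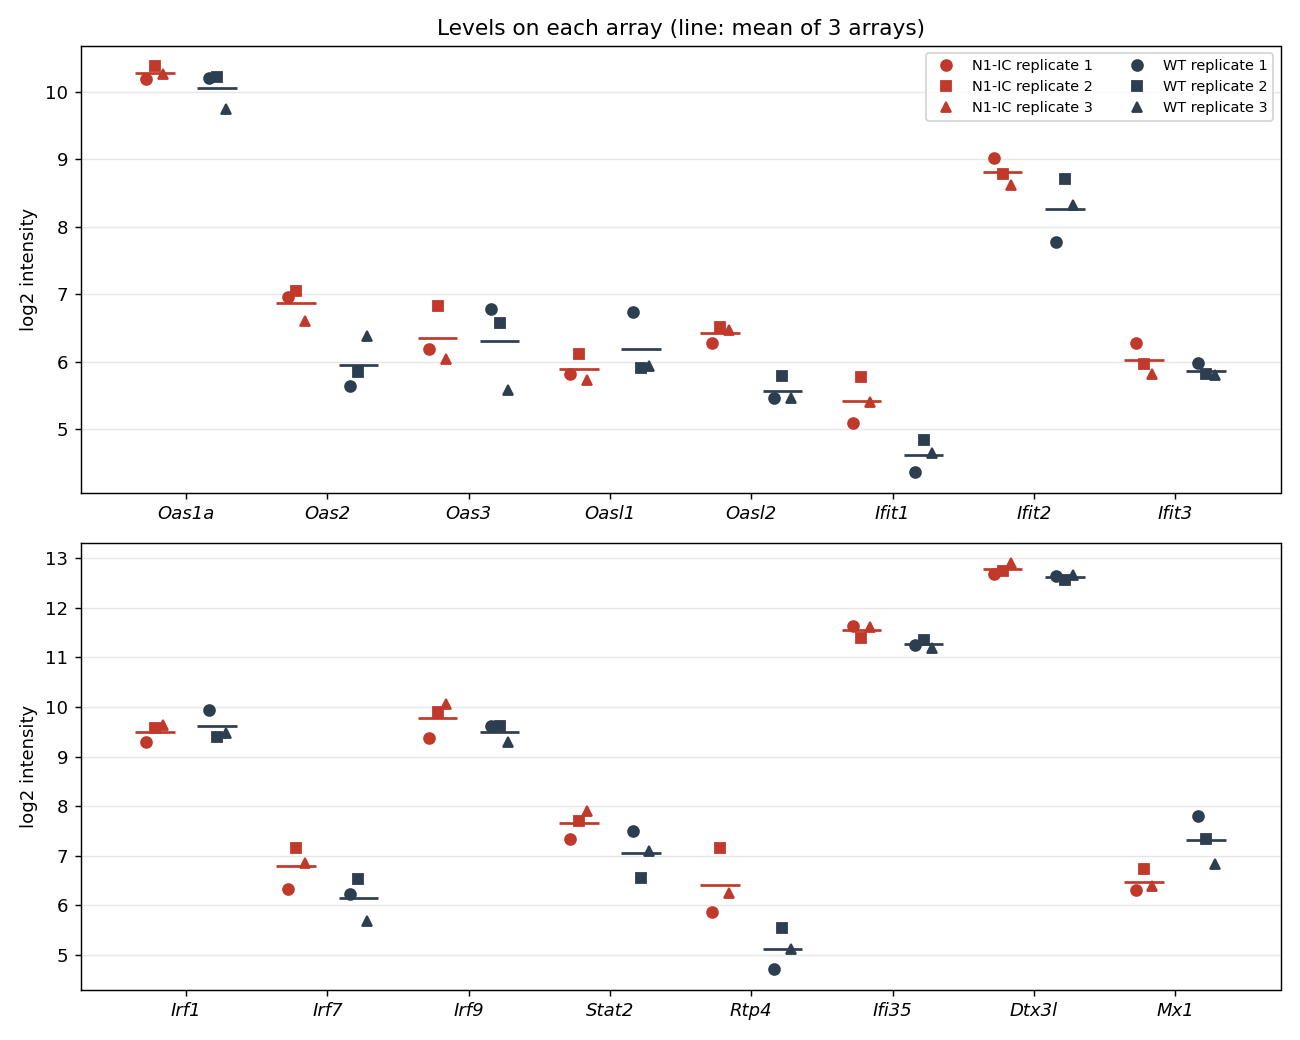
Log2 intensity on each array for the Oas, Ifit, Irf and Stat genes and for Rtp4, Ifi35, Dtx3l and Mx1, with N1-IC left of WT, a symbol per replicate and a line at the mean of 3 arrays. Oas2, Oasl2, Ifit1, Rtp4, Ifi35 and Dtx3l have all N1-IC points above all WT points, and Mx1 has them below.

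Among the transcription factors that drive interferon responses, 3 of 4 had a higher mean in N1-IC and all overlapped between the genotypes. Irf7, known as the amplifier of type I interferon production, was at 6.33, 7.16 and 6.86 in N1-IC, against 6.23, 6.54 and 5.68 in WT. The log2 fold change was 0.64 ± 0.29, and N1-IC replicate 1 lay within the WT range. Stat2, a subunit of the complex that binds the ISRE, was at 7.35, 7.71 and 7.90 in N1-IC, against 7.50, 6.56 and 7.09 in WT, a log2 fold change of 0.60 ± 0.27. WT replicate 1 was the array that overlapped, and the weaker probe set of Stat2 had a log2 fold change of 0.38. Irf9, the DNA-binding subunit of that complex, was at 9.38, 9.90 and 10.06 in N1-IC, against 9.62, 9.61 and 9.28 in WT, a log2 fold change of 0.28 ± 0.20. Irf1, a factor that responds mainly to interferon gamma, was at 9.29, 9.57 and 9.63 in N1-IC, against 9.94, 9.40 and 9.48 in WT. Its log2 fold change was -0.11 ± 0.18. For Stat2, Irf7 and Irf9, N1-IC replicate 1 was the lowest of the N1-IC arrays. These factors averaged 8.09, 8.59 and 8.61 on the N1-IC arrays, against 8.32, 8.03 and 7.89 on the WT arrays, so replicate 1 of N1-IC lay below replicate 1 of WT.

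Of the 8 GTPases, 6 had a higher mean in N1-IC and 2 a lower one. Their median log2 fold change was 0.069, and it ran from -0.041 to 0.14 with 1 array left out. Mx1, the gene of a dynamin-like protein, was at 6.31, 6.74 and 6.39 in N1-IC, against 7.80, 7.34 and 6.84 in WT. Every N1-IC array lay below every WT array, and WT replicate 1 was the highest. The log2 fold change was -0.84 ± 0.26, or 0.557-fold, with an unadjusted p of 0.0160 in limma and an adjusted p of 0.618. Its relative Mx2 was below the lower quartile of the array on 5 of the 6 arrays, at 3.37, 3.92 and 3.17 in N1-IC, against 3.48, 3.29 and 3.50 in WT, and whether it exceeded background is unknown.

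The guanylate-binding proteins and the immunity-related GTPases, which attack the membrane around intracellular parasites, overlapped between the genotypes. Gbp2 was at 6.52, 6.43 and 7.80 in N1-IC, against 6.94, 6.89 and 5.98 in WT, and N1-IC replicate 3 stood alone at the top. Iigp1 showed the same single array, at 3.42, 3.30 and 4.36 in N1-IC, against 3.29, 3.21 and 3.30 in WT. On the other arrays, 5 of the 6, Iigp1 lay below the lower quartile. Gbp3 was at 10.41, 10.30 and 10.91 in N1-IC, against 10.81, 10.54 and 10.79 in WT, a log2 fold change of -0.17 ± 0.18. Igtp was at 9.16, 9.43 and 9.46 in N1-IC, against 9.38, 9.07 and 9.25 in WT. Irgm1 was at 7.89, 7.88 and 8.53 in N1-IC, against 8.20, 7.73 and 8.24 in WT, again with N1-IC replicate 3 the highest. Ifi47 was at 10.98, 11.17 and 11.17 in N1-IC, against 10.99, 10.98 and 11.12 in WT. Its log2 fold change of 0.074 had a 95% interval of -0.17 to 0.31, which covers both directions.

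The sensors of foreign nucleic acid split evenly, 3 with a higher and 3 with a lower mean in N1-IC. Ddx58, which encodes the RNA sensor RIG-I, was at 7.31, 7.64 and 7.53 in N1-IC, against 5.85, 7.07 and 7.44 in WT. The log2 fold change was 0.71 ± 0.40, the N1-IC arrays lay close together, and WT replicate 1 was far below the other WT arrays. A second probe set of Ddx58 was at 7.40, 7.98 and 7.84 in N1-IC, against 4.98, 7.09 and 7.09 in WT, and there the groups did not overlap. Without WT replicate 1 the log2 fold change of Ddx58 was 0.24. Eif2ak2, the kinase PKR that stops translation on double-stranded RNA, had a log2 fold change of 0.24 ± 0.16 with overlapping groups. Another of its probe sets was at 9.34, 9.54 and 9.28 in N1-IC, against 8.90, 8.97 and 8.99 in WT, which did not overlap. Ifih1, the sensor MDA5, had a log2 fold change of 0.16 ± 0.17. Dhx58, a regulator of both sensors, Adar, the RNA-editing enzyme, and Zbp1, a sensor that can start cell death, had -0.10, -0.12 and -0.43. Zbp1 was at 7.19, 7.70 and 8.13 in N1-IC, against 8.49, 8.14 and 7.67 in WT, a wide spread in both groups, and had -0.23 with its probe sets averaged.

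The small modifier Isg15 has no value here, and 3 genes that act with it or beside it gave no call. Usp18, which removes Isg15 from proteins and dampens the type I receptor, was at 6.50, 7.37 and 7.44 in N1-IC, against 7.58, 7.44 and 6.50 in WT, so a low array occurred in each group. Herc6, the mouse ligase for Isg15, had a log2 fold change of 0.50 ± 0.31, with values of 7.55, 8.09 and 7.54 in N1-IC, against 6.83, 6.97 and 7.87 in WT. Its probe sets disagreed, since 1 of the other 3 had a log2 fold change of -0.23. Trim25, a ubiquitin ligase that acts on RIG-I, had -0.046 ± 0.15, and 1 of its other probe sets was lower on every N1-IC array, with -0.25.

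Dtx3l, a ubiquitin ligase, and its partners Parp9 and Parp14, which belong to the ADP-ribosyltransferases, lie on chromosome 16. Dtx3l was at 12.68, 12.73 and 12.89 in N1-IC, against 12.63, 12.56 and 12.66 in WT. The groups did not overlap, but the log2 fold change was only 0.16 ± 0.09, with an unadjusted p of 0.151 and an adjusted p of 0.654 in limma, and its other probe set overlapped. Parp14 and Parp9 had log2 fold changes of 0.22 ± 0.17 and 0.097 ± 0.25 and overlapped.

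Of 2 membrane proteins and a peptide transporter, Bst2 and Tap1 had a lower mean in N1-IC and Ifitm3 a higher one. Bst2, also called tetherin, which holds budding virus at the cell surface, was at 9.73, 9.87 and 9.98 in N1-IC, against 10.39, 10.41 and 9.93 in WT. WT replicate 3 alone lay among the N1-IC arrays, and limma gave a log2 fold change of -0.38 ± 0.16 (adjusted p of 0.618). Tap1, which carries peptides to MHC class I molecules, was at 9.55, 10.25 and 10.06 in N1-IC, against 10.45, 10.51 and 10.17 in WT, a log2 fold change of -0.43 ± 0.20, with WT replicate 3 below N1-IC replicate 2. The next probe set of Tap1 had 0.014, and the mean of its probe sets -0.086. Ifitm3, which blocks fusion of viruses in endosomes and is known as a marker of primitive haematopoietic cells, had the widest spread of the list. It was at 10.28, 11.83 and 11.17 in N1-IC, against 9.17, 12.31 and 10.71 in WT, and its log2 fold change of 0.37 had a 95% interval of -1.62 to 2.35. The lowest WT value of Ifitm3 was on replicate 1, with the low late granulocyte list, and the highest on replicate 2, with the high erythroid list. The part of either list in it was not tested.

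Effectors that act on nucleotides and RNA gave 2 higher and 2 lower means in N1-IC. Rsad2, which encodes viperin, an enzyme that makes a chain-terminating nucleotide, was at 7.19, 7.76 and 9.63 in N1-IC, against 8.21, 7.81 and 7.78 in WT. N1-IC replicate 3 was far above the other arrays, and without it the log2 fold change was -0.46. The next probe set of Rsad2 was at 6.22, 7.62 and 7.77 in N1-IC, against 7.27, 7.14 and 6.96 in WT. There N1-IC replicate 3 lay close to replicate 2. On the weakest probe set replicate 3 was again the highest array, at 4.38. Cmpk2, a nucleotide kinase gene on the same chromosome 12, was at 8.45, 8.5 and 8.67 in N1-IC, against 7.94, 8.52 and 8.43 in WT, with no such high array, and the mean of its probe sets had a log2 fold change of 0.050 in place of 0.24. Samhd1, which removes deoxynucleotides, had a log2 fold change of -0.064 ± 0.15. Isg20, an exonuclease, was at 8.77, 9.0 and 9.02 in N1-IC, against 8.93, 10.02 and 9.10 in WT, with 1 high array, WT replicate 2.

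Rtp4, a chaperone of membrane receptors that interferon strongly induces, had the largest log2 fold change of the 43 genes. It was at 5.87, 7.15 and 6.25 in N1-IC, against 4.71, 5.54 and 5.12 in WT, and all N1-IC arrays lay above all WT arrays. The log2 fold change was 1.30 ± 0.37, or 2.46-fold, with a 95% interval of 0.40 to 2.19 and an adjusted p of 0.618 in limma. Its weaker probe set was also higher on every N1-IC array, at 4.46, 5.40 and 4.50, against 4.38, 3.97 and 4.40 in WT. Ifi35, a protein that pairs with Nmi, was at 11.63, 11.39 and 11.61 in N1-IC, against 11.25, 11.35 and 11.18 in WT, a log2 fold change of 0.28 ± 0.11. One of its other probe sets separated the groups more widely, with a log2 fold change of 0.76. The remaining one went the other way, with -0.10, and its groups overlapped. Xaf1, a death-promoting factor, and Trim30a, a ubiquitin ligase family member, had log2 fold changes of -0.10 and 0.032 and overlapped. The weaker probe set of Trim30a was higher on every N1-IC array, with 0.20.

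Within each genotype the arrays were not level for these genes. N1-IC replicate 1 was the lowest N1-IC array for 26 of 43 genes (60.5%, against 34.2% of all genes), and N1-IC replicate 2 the highest for 23 (53.5%, against 35.6%). In WT, replicate 3 was the lowest array for 22 genes (51.2%, against 32.8%). The mean over the 43 genes was 8.25, 8.59 and 8.57 on the N1-IC arrays, against 8.33, 8.40 and 8.20 on the WT arrays. N1-IC replicate 1 thus lay within the WT range, and the SD between arrays was 0.19 in N1-IC and 0.10 in WT. The late granulocyte list averaged 10.17, 10.44 and 9.92 on the N1-IC arrays, against 7.47, 10.24 and 9.74 on the WT arrays. The part of this list in the order of the arrays was not tested.

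**Figure D3:**
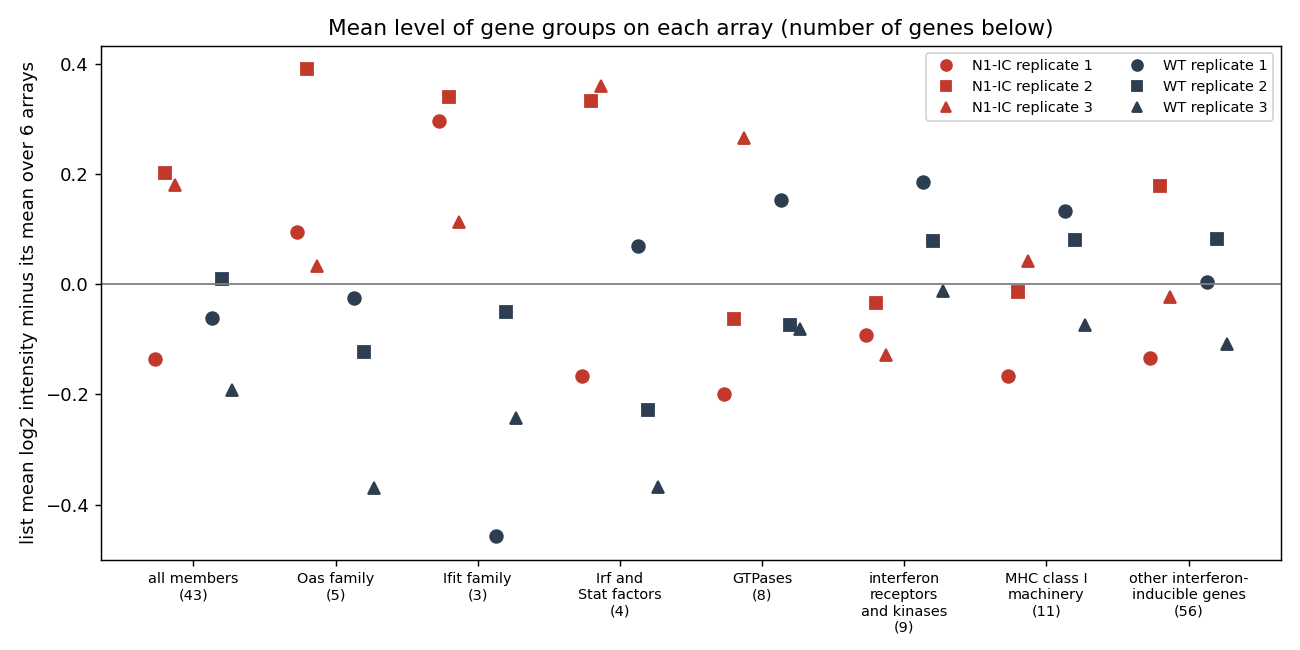
Mean log2 intensity of each gene group on each array, minus its mean over the 6 arrays, with N1-IC left of WT and the number of genes under each name. The Oas and Ifit means of the 3 N1-IC arrays lie above those of all WT arrays, N1-IC replicate 1 lies below the other N1-IC arrays for all members, the Irf and Stat factors and the GTPases, and the receptors and kinases lie lower on all N1-IC arrays.

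The receptors and kinases upstream of these genes had lower means in N1-IC for the most part. Of 9 measured genes 7 had a lower mean, with a median log2 fold change of -0.18, and 0 passed the threshold. Tyk2, a kinase of the type I receptor, was at 8.92, 8.94 and 8.77 in N1-IC, against 9.36, 9.26 and 9.19 in WT, a log2 fold change of -0.40 ± 0.10 with an unadjusted p of 0.00583 and an adjusted p of 0.618 in limma. Ifngr2, the signalling chain of the interferon gamma receptor, was at 7.86, 8.01 and 7.84 in N1-IC, against 8.54, 8.49 and 8.03 in WT, a log2 fold change of -0.45 ± 0.16. For both genes every N1-IC array lay below every WT array. Over the 108 genes of all pathway lists, named here and below, this held for 7 (6.48%, against 6.52% of all genes). Every N1-IC array lay above every WT array for 8 (7.41%, against 8.32%), so full separation was about as common as among all genes. With probe sets averaged, Tyk2 had -0.091 and Ifngr2 -0.29. Ifnar1 and Ifnar2 had log2 fold changes of -0.18 ± 0.15 and -0.31 ± 0.14, and -0.67 and -0.025 with probe sets averaged. Ifngr1, Jak1 and Jak2 had -0.062, 0.042 and -0.061, and Il10rb and Ifnlr1, chains of the interferon lambda receptor, had -0.25 and 0.15.

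Interferon genes themselves gave no call in 10 measured members, of which 4 were below the lower quartile on all arrays. Ifna1 had a log2 fold change of 0.28 ± 0.10 and was higher on every N1-IC array, Ifnz had 0.43 ± 0.20 and Ifng -0.21 ± 0.10. Ifna11, named after its values were seen, was lower on every N1-IC array, with -0.13 ± 0.10. It is among the 4 genes below the lower quartile, at 2.79 to 2.86 in N1-IC and 2.88 to 3.10 in WT, and may lie at background. Among 10 genes that sense nucleic acids upstream of interferon, Myd88, an adaptor of Toll-like receptors, and the factor Irf5 were higher on every N1-IC array, with 0.33 ± 0.12 and 0.19 ± 0.08. The direction of Irf5 turned, to -0.35, when its probe sets were averaged. Ticam1, the adaptor of Tlr3, was lower on every N1-IC array, with -0.63 ± 0.20. Of the other Irf factors, Irf4 had -1.11 ± 0.34 and was lower on every N1-IC array, Irf8, a factor of monocyte and dendritic cell fate, had -0.48 ± 0.21, and Irf2 had 0.058. Irf4 had -0.55 with its probe sets averaged. Feedback inhibitors were split, 6 higher and 3 lower, with Socs1, Pias1 and Cish at 0.24, 0.17 and -0.27. None of these genes passed over all genes, at adjusted p values of 0.618 or more.

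Genes of the MHC class I machinery, which interferon gamma induces, had 8 of 11 members lower in N1-IC and a median of -0.085. The immunoproteasome subunit Psmb9 was lower on every N1-IC array, with a log2 fold change of -0.24 ± 0.10, and Psmb8 and Tap2 had -0.26 and -0.41, with -0.087 for Psmb8 when its probe sets were averaged. A wider list of interferon-inducible genes outside the 45 gave 26 of 56 members higher and 30 lower, with a median log2 fold change of -0.037 and 0 past the threshold. In that list Parp12, Cxcl10, a chemokine, and Oas1c had log2 fold changes of 0.47 ± 0.13, 0.84 ± 0.35 and 0.40 ± 0.17. The median of the 43 genes and that of the wider list thus differed in sign, and the difference between the lists was not tested.

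**Figure D4:**
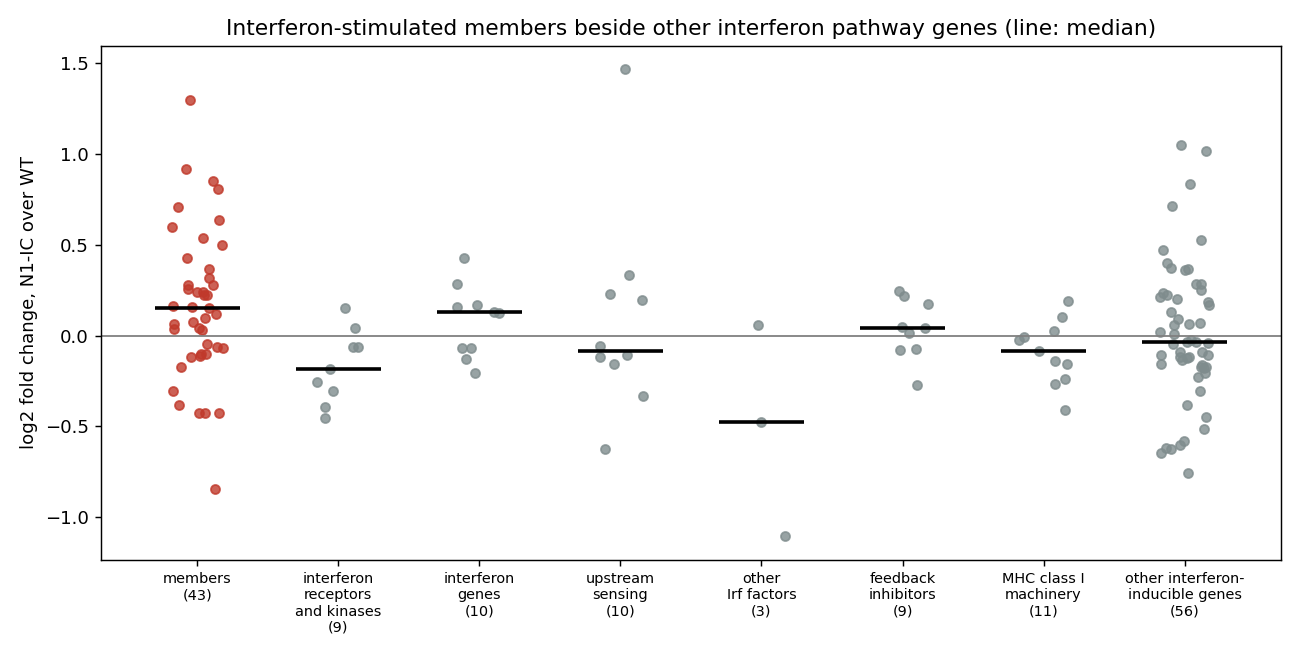
Log2 fold change of N1-IC over WT for each of the 43 interferon-stimulated genes (red, left) and for the genes of 7 other interferon pathway lists (grey), with a line at each median and the number of genes under each name. The median is 0.15 for the members, -0.18 for the receptors and kinases and -0.037 for the other interferon-inducible genes.

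Markers of other cells that could stand in the sorted sample were set beside these values. Of 10 plasmacytoid dendritic cell genes, which mark the main producers of type I interferon, 9 were measured. Their summed intensity ran from 6174 to 6593 in N1-IC and from 5618 to 7072 in WT, and 5 of 9 were higher in N1-IC. No intensity on this scale is 0, and the most abundant of these genes were Tcf4 and Bst2, the second of which is itself a member. Late granulocyte genes, 11 of 14 measured, summed to 52138 to 70405 in N1-IC and 8084 to 64046 in WT, and all 11 were higher in N1-IC. Their most abundant genes S100a9 and S100a8 were at 10.97 and 11.67 in WT replicate 1 and at 13.83 to 14.23 on the remaining 5 arrays. Monocyte and macrophage genes, 10 of 12 measured, summed to 7861 to 10591 in N1-IC and 8792.5 to 14427 in WT, and split 5 to 5. Conventional dendritic cell, B cell, T cell and NK cell lists had medians between -0.071 and 0.17. Erythroid and megakaryocyte genes summed to 1104 to 4247 in N1-IC and 1532 to 19028 in WT, where WT replicate 2 held the top value. Mast cell, basophil and eosinophil genes summed to 3712 to 8011 in N1-IC and 5239 to 10444 in WT, with 9 of 11 higher in N1-IC. The part of these lists in the values of the interferon-stimulated genes was not tested. Without WT replicate 1 the members' median was 0.18, and without WT replicate 2 it was 0.13.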

How the data were processed

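RNA of 6 sorted samples was amplified from 5 ng and hybridised to Affymetrix arrays, per the labels' protocols. The deposited values are linear probe set intensities, and the submitters' processing notes name RMA, with no version given in the sources used here. Sorted log2 values of every array lay within 0.103 of the mean array, so the authors' normalization removes differences in total signal. Log2 was taken with no offset. Of 45101 probe sets, 34958 had 1 gene symbol, 932 several and 9211 none; detection calls were not used here. Each gene took its brightest probe set over the 6 arrays, giving 18194 genes.

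N1-IC was compared with WT in R 4.3.3 with limma 3.58.1 (lmFit, eBayes), with calls where the p adjusted by Benjamini-Hochberg over all genes was below 0.05. The fit was run on simulated data with independent noise and no effect of sex or cell mixture. Recovery was required there only for changes far larger than those of the members. Whether changes of the members' size would be found was thus not shown. Errors are limma's standard errors, and 95% intervals use its moderated degrees of freedom. The number of arrays limits the precision. The members and lists were chosen with earlier results of these data known. Named are all members, receptors and kinases, up to 3 genes of other pathway lists by the smallest p, and the 2 most abundant markers of a list; Kit, Cd34, Xist and Eif2s3y were added to check the labels. Alternatives were a variance trend, a robust prior, array weights, renewed quantile normalization, median centring, a level filter, other probe set choices, a replicate block and each array left out. Promoters and chromosomes come from RefSeq tables of GRCm38.p6.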

Additional observations from a re-analysis of the deposited data

How the results depend on the processing

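None of the 43 interferon-stimulated genes and none of the 108 other pathway genes passed under any of the 15 alternatives, and the smallest adjusted p of a member was 0.294, without WT replicate 3. The number of all genes called was 1 in the fit of 6 arrays, 3 with a mean-variance trend, 2 with array weights, 2 after genes below the median level were dropped, 5 with probe sets averaged per gene, 4 among all probe sets, and 0 to 5 with an array left out. With the replicate number as a block it was 0, and the block changed no call of a member. Same-numbered arrays deviated from their group means with correlations of 0.0093, 0.061 and -0.11, so the numbers are not taken to pair the samples. After genes below the median level were dropped, 31 members were left, 19 of them higher in N1-IC and 2 with groups that did not overlap. The share of non-overlap over all genes kept by this filter was not counted. With an array left out, 24 to 32 members were higher, and the median of the Ifit family was 0.29 to 0.76 and that of the GTPases -0.041 to 0.14. Groups did not overlap for 10 to 15 members, but groups separate more easily with fewer arrays. The share over all genes was not counted there, so this number is not set against the fit of 6 arrays. A variance trend, a robust prior, the level filter, a replicate block and a fit over all probe sets cannot turn a member's sign. Neither can averaging probe sets for the 23 members with 1 probe set. The sign held in every alternative for 27 members and turned in at least 1 for 16, for which the cause was not tested. With arrays left out, the log2 fold changes of these ran from -0.33 to 0.27 for Oas3, -0.21 to 0.054 for Irf1, -0.15 to 0.22 for Mx2, -0.12 to 0.56 for Gbp2, -0.18 to 0.15 for Irgm1, -0.0037 to 0.27 for Ifih1, -0.27 to 0.0089 for Dhx58, -0.30 to 0.065 for Adar, -0.41 to 0.23 for Usp18, -0.13 to 0.094 for Trim25, -0.049 to 0.31 for Parp9, -0.41 to 1.16 for Ifitm3, -0.46 to 0.76 for Rsad2, -0.22 to 0.028 for Samhd1, -0.22 to 0.12 for Xaf1 and -0.051 to 0.093 for Trim30a. Among named pathway genes they ran from -0.47 to 0.071 for Cish, -0.14 to 0.0099 for Ifngr1, -0.0032 to 0.092 for Jak1 and -0.20 to 0.060 for Jak2. Other turned signs were Irgm1 at -0.0061 with array weights, Usp18 at 0.0070 with renewed quantile normalization, and, with probe sets averaged per gene, Dhx58 at 0.15, Jak1 at -0.019, Irf5 at -0.35 and Pias1 at -0.041. Values near the lower quartile of an array, as for Mx2 and Iigp1, may lie at background.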
